A study of Arabidopsis thaliana with 32 samples.

Results

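This account follows 38 genes of Arabidopsis root hairs, chosen by gene ID from a table of 27655 genes. They were grouped by role as 5 basic helix-loop-helix (bHLH) transcription factors, 9 regulators of tip growth, 14 genes of the wall and of the root hair specific (RHS) set, and 10 extensins. Of the 38, 37 passed the filter on low values, and RSL1 did not. IRE and PIP5K3 passed it in the fewest libraries, 7 and 8 of 32. RNA was sequenced from seedlings of pif4-2, hmr-22, med14-2, and Col-0, the wild type in whose background all 3 mutants stand. They grew for 96 h under constant red (R) light whose fluence rate was 50 µmol m-2 s-1, with 27 or 20°C as the temperature. Each of the 8 groups had 4 biological replicates, each from pooled seedlings. pif4-2 is an insertion allele of the thermosensory bHLH factor PIF4. hmr-22 is a weak allele of HMR, a coactivator of PIF4 that also sits in the plastid, with an amino acid substitution in its activation domain. The line labelled med14-2, which the study calls med14, is an insertion line of the Mediator tail subunit MED14. Each mutant is represented by 1 line. The comparisons ask whether warmth changes these genes and whether the change needs PIF4, HMR, or MED14.

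A root hair is a tube that grows out of a single epidermal cell of the root by extension at its tip. RHD6 and RSL1 start the programme in hair cells, RSL2 and RSL4 act after them and set hair length, and LRL3 belongs to a second bHLH family of hair cells. Downstream genes supply the oxidase, lipid kinases, and actin factors that keep growth at the tip. Expansins, proline-rich proteins, peroxidases, and extensins build and cross-link the new wall. PIF4 itself is known for driving the growth of the hypocotyl in warm seedlings, in the shoot.

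The promoters of many hair cell genes carry the root hair element, a sequence that bHLH factors of the RSL class bind. Windows of 250 bases before to 50 after each RefSeq gene start (TAIR10.1, whose nuclear sequence is that of TAIR10) were searched on both strands. The element was found in 10 of the 38 genes (26.3%), against 238 of 27437 nuclear promoters (0.867%). It was found in 8 of the 14 wall and RHS genes (57.1%), in 2 of the 9 tip growth regulators (22.2%), and in none of the 5 bHLH genes or 10 extensins. The G-box CACGTG, to which PIF factors bind, was in none of the 38 windows, against 7.67% of all promoters. These matches describe letters in a window and not binding. How far the way these gene sets were first compiled fixed the shares was not tested. The stretches below show the match in each of 9 genes, to let the sequences be compared. Capitals mark the match, written 5′ to 3′ on the strand of the gene.
LRX1, chr1:4069879-4069934 (+ strand): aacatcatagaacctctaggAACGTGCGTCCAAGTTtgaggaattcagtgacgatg
EXPA7, chr1:4276407-4276463 (+ strand): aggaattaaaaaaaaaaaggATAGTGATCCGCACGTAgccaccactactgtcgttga
PRP1, chr1:20504752-20504808 (+ strand): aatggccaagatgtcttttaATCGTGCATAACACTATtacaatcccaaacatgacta
EXPA18, chr1:23331503-23331558 (+ strand): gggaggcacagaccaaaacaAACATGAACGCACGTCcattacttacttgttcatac
MRH6, chr2:1132027-1132083 (+ strand): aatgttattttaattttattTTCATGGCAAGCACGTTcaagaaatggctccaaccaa
PRP3, chr3:23182535-23182591 (+ strand): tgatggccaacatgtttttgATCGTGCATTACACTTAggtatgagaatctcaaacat
RHS13, chr4:993213-993269 (- strand): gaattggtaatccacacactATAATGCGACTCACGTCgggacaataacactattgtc
G3Pp2, chr4:12920616-12920671 (+ strand): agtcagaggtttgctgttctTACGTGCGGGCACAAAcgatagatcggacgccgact
RHS18, chr5:7426198-7426253 (+ strand): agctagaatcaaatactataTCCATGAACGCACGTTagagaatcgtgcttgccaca
In LRX1, PRP1, PRP3, and G3Pp2 the element reads on the opposite strand. The match of PERK13 spans the gene start and is not printed, nor is a second match of EXPA18 inside the gene.

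The libraries held 11911240 to 16883321 mapped fragments, as recovered from the deposited FPKM values (mapped fragments, scaled by exon length and library size). The share of them in nuclear genes was 64.4 to 74.7% in hmr-22 at 27°C and 55.9% in replicate 1 of med14-2 at 27°C, against 91.9 to 93.0% in Col-0 at 27°C. At 20°C it was 35.2 to 61.0% in hmr-22, against 68.0 to 82.8% in Col-0. FPKM values were divided by 1 factor per library, which was 0.197 to 0.647 in hmr-22 and 0.871 to 1.83 elsewhere. Levels below are these scaled FPKM values. For warm libraries the factors were 1.635 to 1.769 (Col-0) against 0.445 to 0.647 (hmr-22). For cool libraries they were 1.09 to 1.29 (Col-0) against 0.197 to 0.418 (hmr-22). In proportion, the 2 genotypes differed more in these factors than in nuclear share, and the cause of the remainder was not tested. Without the factors, the median of all genes between hmr-22 and Col-0 moved by −1.32 in warm and −1.39 in cool seedlings, and by 0.475 with warmth in Col-0 (log2), so every change here is relative to such shifts. The transcripts of the mutated genes were read first. PIF4 had 3.92 ± 1.19 in pif4-2 at 27°C and 14.4 ± 1.4 in Col-0 (scaled FPKM, SD, n = 4). At 20°C it had 5.2 ± 0.708 in pif4-2 and 6.32 ± 1.55 in Col-0, with overlapping ranges, so the cool comparisons of pif4-2 rest on libraries in which the PIF4 transcript was not clearly lower. HMR had 1.7 ± 0.464 in hmr-22 at 27°C and 28.2 ± 2.39 in Col-0, and at 20°C 0.78 ± 0.506 in hmr-22 and 25 ± 2.83 in Col-0. Its transcript was thus nearly absent from hmr-22, although the allele is described as an amino acid substitution, and the cause was not tested. At 27°C MED14 was not lower in the libraries labelled med14-2, with 6.14 ± 0.479 against 5.1 ± 0.396 in Col-0, so directions drawn from them are those of libraries so labelled. The study describes its med14 line as strongly reduced in MED14 expression and reports that a MED14 transgene largely rescued its growth response. The site of the insertion relative to the transcript was not checked here.

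In Col-0, 26 of the 37 genes tested were lower at 27°C than at 20°C and none was higher (limma, adjusted p under 0.001, at least 2-fold, larger group mean over 1 FPKM). Of all 19937 genes tested, 2.99% were lower and 2.24% were higher by the same rule. The median log2 change of the 37 genes was −1.91, against 0.02 for all genes. At an unadjusted p under 0.05, 36 were lower and none higher, and voom on the recovered fragments called 29 lower and none higher. By role, the lower genes were all 10 extensins, 12 of 14 wall and RHS genes, 4 of 9 tip growth regulators, and none of the 4 bHLH factors tested. The ranges of the 4 libraries at each temperature did not overlap for 36 of the 37 genes, against 22.7% of all genes that lay lower in this way. Of the 26 calls, 25 remained whichever library was left out. Seedlings were sequenced whole, so fewer hair cells and less RNA per hair cell cannot be told apart.

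**Figure D1:**
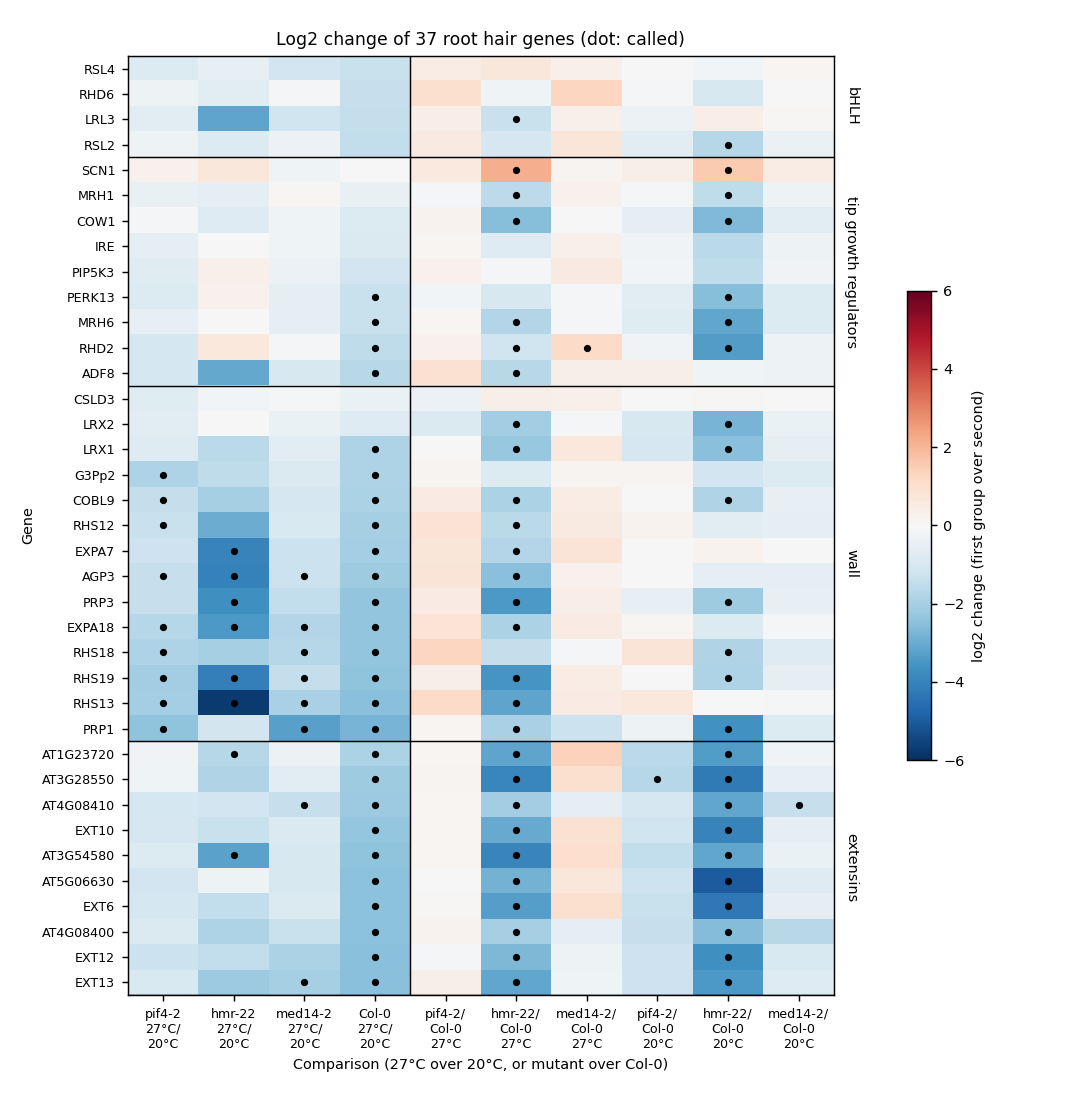
Log2 change of the 37 genes tested, with genes in rows by role, comparisons in columns, and a dot on each change that was called. The blue column of Col-0 (27 over 20°C) has 26 dots and the same columns of the 3 mutants have 8 or 9. The median log2 change in these columns was −1.49 in hmr-22 and −0.92 in pif4-2 and med14-2, so like counts of dots do not show like responses. SCN1 stands apart in red in hmr-22, a direction that turns at 20°C without the scaling factors.

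Some root markers outside hair cells were lower as well. Of 16 such markers, 13 were tested and 3 were lower in Col-0 at 27°C, with a median log2 change of −0.74. The 3 were CASP1 and CASP2, which mark the endodermis (−1.21 and −1.1), and PIN2, an auxin carrier of root epidermis and cortex (−1.62). Their summed level over all 16 ran from 39.7 to 61.1 scaled FPKM at 27°C and from 82.6 to 97.0 at 20°C, and none was at 0 throughout a Col-0 group. The 38 root hair genes summed to 84.6 to 121 scaled FPKM at 27°C and to 329 to 425 at 20°C. The 4 green tissue markers, which include the small subunit of Rubisco, had a median log2 change of −0.38, and none was called. They summed to 10880 to 12800 scaled FPKM at 27°C and to 16900 to 20310 at 20°C, without overlap, and on the deposited scale to 18530 to 21470 and 18790 to 24720, which overlap. The deposited sums of the root markers overlapped as well, at 66.6 to 104 FPKM at 27°C and 96.7 to 113 at 20°C. The part of a smaller root share in the lower root hair genes was not tested.

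The bHLH factors were among the least abundant genes, and their log2 changes are understated because 0.25 FPKM was added before taking logs. RHD6 (TAIR10 chromosome 1, 24795214 to 24797015) had 0.189, 0.179, 0.319, and 0.388 scaled FPKM in the 4 Col-0 libraries at 27°C and 1.16, 1.24, 0.756, and 1.15 at 20°C. Every warm library lay below every cool one, at log2 change −1.36 ± 0.33 (SE), limma adjusted p = 0.00216, which misses the threshold for a call. In med14-2-labelled libraries RHD6 had 0.965, 0.876, 1.1, and 1.14 at 27°C and 1.03, 1.46, 0.832, and 1.02 at 20°C, and these ranges overlap. At 27°C all 4 of those med14-2 values lay above all 4 of Col-0, at log2 change 1.31 ± 0.33 (SE), limma adjusted p = 0.00534. The difference between the 2 responses to warmth did not pass its test (difference 1.3 ± 0.46, SE, limma adjusted p = 0.0974).

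RSL2 (TAIR10 chromosome 4, 16239363 to 16241169) had 0.14, 0.0925, 0.45, and 0.455 in Col-0 at 27°C and 0.803, 1.48, 1.4, and 1.15 at 20°C, with log2 change −1.5 ± 0.38 (SE), limma adjusted p = 0.00344. RSL4 (TAIR10 chromosome 1, 9654475 to 9656089) had 0.259, 0, 0.34, and 0.276 at 27°C and 0.786, 0.638, 1.15, and 0.955 at 20°C, with log2 change −1.33 ± 0.46 (SE), limma adjusted p = 0.0323. LRL3 (TAIR10 chromosome 5, 23483366 to 23485014) had 0.436, 0.321, 0.968, and 1.0 at 27°C and 1.92, 1.74, 2.5, and 2.4 at 20°C, with log2 change −1.43 ± 0.32 (SE), limma adjusted p = 0.00108. So all 4 tested factors were lower in each warm Col-0 library than in any cool one, and none was called. RSL1 (TAIR10 chromosome 5, 15036066 to 15037884) was not tested: its highest value in Col-0 was 0.151 at 27°C and 0.243 at 20°C, from 10 and 13 fragments summed over 4 libraries. In pif4-2 none of the 4 tested factors passed an adjusted p under 0.05 with warmth, with log2 changes of −0.83 to −0.31. Of all genes 15.9% were lower at this level, and a count over 4 genes cannot be told apart from that share. The responses of the 4 factors differed from those in Col-0 by 0.50 to 1.18, and none of these differences passed its test.

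Among tip growth regulators, RHD2 (TAIR10 chromosome 5, 20757199 to 20762461) codes for the NADPH oxidase that makes reactive oxygen at the hair tip. It had 1.04, 1.2, 1.53, and 1.48 in Col-0 at 27°C and 3.99, 4.73, 4.07, and 4.26 at 20°C, and fell in each warm library (log2 change −1.54 ± 0.24, SE, limma adjusted p = 1.48e-05). In the libraries labelled med14-2 it had 3.25, 3.24, 3.67, and 2.71 at 27°C and 3.52, 4.05, 3.2, and 3.03 at 20°C, with overlapping ranges (log2 change −0.09 ± 0.24, SE, limma adjusted p = 0.838). The 2 genotypes differed in their response (difference 1.45 ± 0.34, SE, limma adjusted p = 0.00644). At 27°C RHD2 was the 1 gene of the 37 called higher in med14-2 than in Col-0 (log2 change 1.15 ± 0.24, SE, limma adjusted p = 0.000985), against 1.38% of all genes called higher. No gene was called lower, against 1.85% of all genes, with 2 lower at an unadjusted p under 0.05 and none by voom. That call sits at its threshold: leaving out any 1 of 26 libraries, all 8 of med14-2 and all 8 of Col-0 among them, moved the adjusted p to between 0.00105 and 0.0064, and without replicate 1 of med14-2 at 27°C it was 0.00372.

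ADF8, an actin depolymerizing factor (TAIR10 chromosome 4, 279596 to 281072), had 0.577, 0.456, 1.12, and 0.948 in Col-0 at 27°C and 2.37, 3.24, 2.64, and 3.29 at 20°C (log2 change −1.65 ± 0.27, SE, limma adjusted p = 2.99e-05). MRH6 and PERK13 were also called lower in warm Col-0, at −1.35 and −1.31. The call of PERK13, a receptor-like kinase, was lost when any of 13 libraries was left out, at adjusted p values of 0.00102 to 0.00528. They were all 8 of Col-0, replicates 1 and 2 of pif4-2 at 20°C, replicates 1 and 3 of med14-2 at 20°C, and replicate 1 of med14-2 at 27°C. The receptor-like kinase MRH1 and the phosphoinositide genes COW1 and PIP5K3 had smaller log2 changes, −0.44, −0.83, and −1.14, and were not called. MRH1 (TAIR10 chromosome 4, 10259600 to 10263822) had 3.32, 3.69, 3.67, and 3.85 in warm Col-0 and 4.56, 5.28, 4.86, and 5.39 in cool Col-0, a shift under 2-fold with no overlap. SCN1 (TAIR10 chromosome 3, 2513925 to 2515983), a RhoGDI that confines ROP GTPases to 1 site per hair cell, was the exception in Col-0. It had 17.5, 18, 18.4, and 17.1 at 27°C and 16.9, 16.3, 17.3, and 18.8 at 20°C, with overlapping ranges and log2 change 0.04 ± 0.13 (SE), limma adjusted p = 0.889.

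The wall and RHS genes include the expansins, proline-rich proteins, peroxidases, and other surface proteins of hair cells. PRP3 (TAIR10 chromosome 3, 23182722 to 23184042), a proline-rich wall protein, had 2.39, 2.96, 4.87, and 3.93 in Col-0 at 27°C and 21.6, 19.9, 19.2, and 14.5 at 20°C (log2 change −2.36 ± 0.34, SE, limma adjusted p = 3.77e-06). RHS13 (TAIR10 chromosome 4, 992111 to 993039), of the Pollen Ole e 1 family of secreted proteins, had 3.17, 2.3, 6.5, and 5.44 at 27°C and 22.4, 21.1, 26.1, and 28.9 at 20°C (log2 change −2.53 ± 0.36, SE, limma adjusted p = 3.67e-06). RHS19 (TAIR10 chromosome 5, 26894778 to 26896488), a peroxidase, had 2.17, 2.13, 6.03, and 4.64 at 27°C and 18.1, 19.4, 21.4, and 18.6 at 20°C (log2 change −2.42 ± 0.29, SE, limma adjusted p = 1.85e-07). These and the arabinogalactan protein AGP3 were the most abundant of the 14 in cool Col-0, and their warm libraries all lay below their cool ones.

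AGP3 (TAIR10 chromosome 4, 18580827 to 18581696) had 3.67, 2.74, 7.5, and 5.81 in warm Col-0 and 21.2, 22.1, 20.6, and 19.2 in cool Col-0 (log2 change −2.12 ± 0.27, SE, limma adjusted p = 5.05e-07). EXPA7 (TAIR10 chromosome 1, 4276505 to 4277969), an expansin that loosens the hair wall, had 1.14, 1.07, 1.96, and 2.11 at 27°C and 5.95, 6.23, 8.14, and 7.83 at 20°C (log2 change −2.04 ± 0.31, SE, limma adjusted p = 8.85e-06). RHS12 (TAIR10 chromosome 3, 3352077 to 3354375), a pectin methylesterase, had 0.378, 0.418, 1.08, and 0.724 at 27°C and 2.83, 3.39, 3.44, and 3.06 at 20°C (log2 change −2.0 ± 0.24, SE, limma adjusted p = 2.57e-07). PRP1, EXPA18, COBL9, LRX1, RHS18, and G3Pp2 were called lower too, at −2.81 to −1.85. In Col-0 at 27°C, replicates 1 and 2 were the lowest library for 17 and 19 of the 37 genes and replicates 3 and 4 for 0 and 1, so the warm group itself was uneven. The 2 genes of this role not called were LRX2 (−0.76) and CSLD3 (−0.41). CSLD3 (TAIR10 chromosome 3, 686981 to 691911), a cellulose synthase-like enzyme needed for the hair wall, had 7.48, 7.56, 8.27, and 8.71 in warm Col-0 and 11.4, 11.2, 10.9, and 9.32 in cool Col-0.

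**Figure D2:**
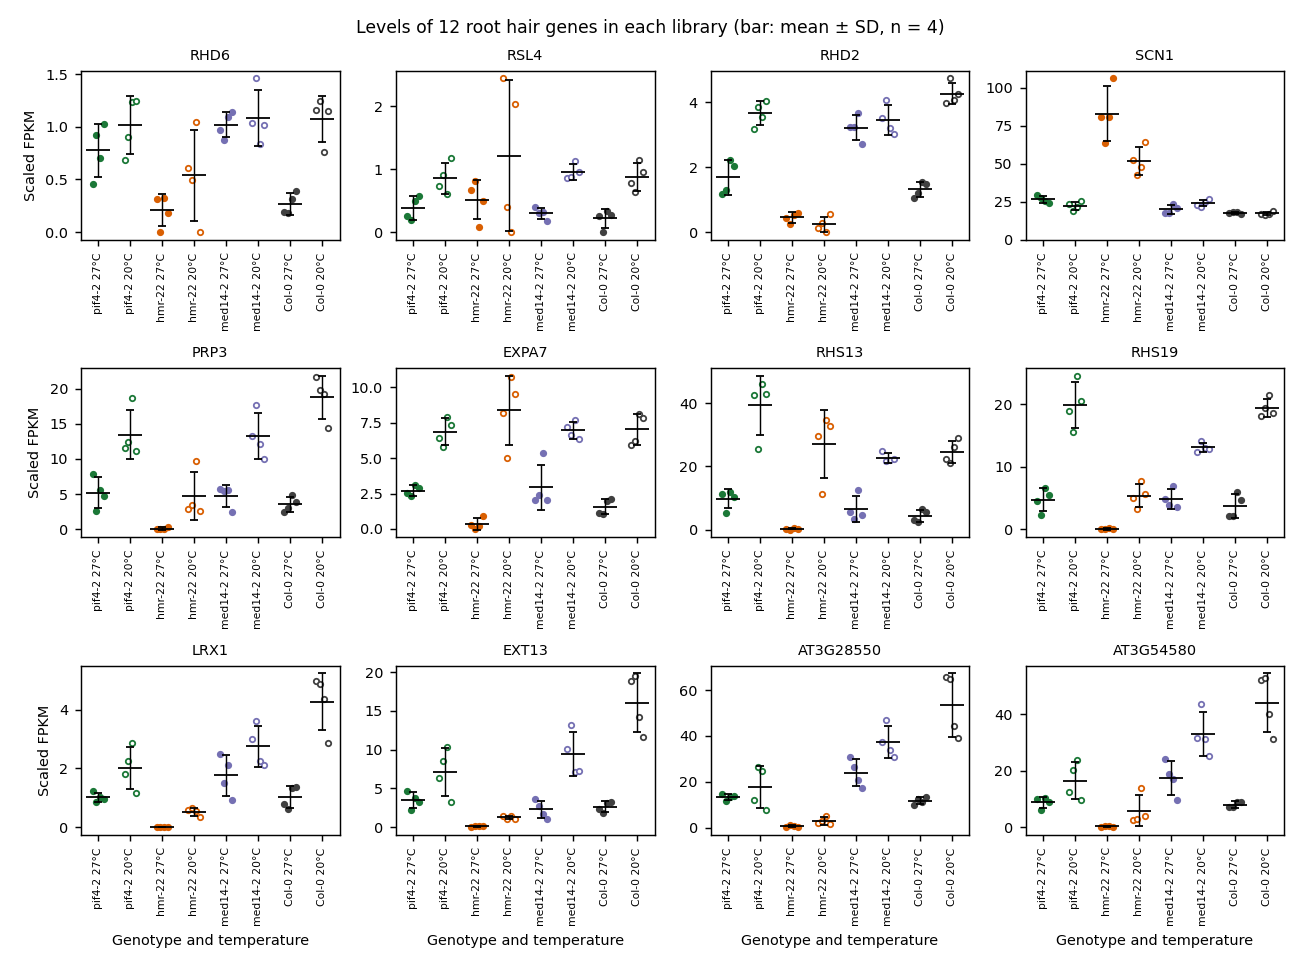
Scaled FPKM of 12 of the genes in each of the 32 libraries, as points (filled at 27°C, open at 20°C) with the mean and SD of 4 libraries, on linear axes. In Col-0 the filled points lie below the open ones for 11 of the 12 genes, and for SCN1 they overlap.

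Extensins, rod-like glycoproteins that are cross-linked into the hair wall, were the role in which all members were called in warm Col-0. Their log2 changes were −2.50 to −1.91. AT3G28550 (TAIR10 chromosome 3, 10700562 to 10704018), annotated as a proline-rich extensin-like protein, had 9.95, 12.6, 11.3, and 13.3 in Col-0 at 27°C and 65.9, 64.9, 44.2, and 39 at 20°C (log2 change −2.13 ± 0.32, SE, limma adjusted p = 7.26e-06). AT3G54580 (TAIR10 chromosome 3, 20200573 to 20203919) had 7.08, 7.13, 9.02, and 8.99 at 27°C and 52.2, 52.9, 40, and 31.4 at 20°C (log2 change −2.4 ± 0.35, SE, limma adjusted p = 4.26e-06). AT1G23720 (TAIR10 chromosome 1, 8388297 to 8391623) had 7.11, 10.4, 10.1, and 11.6 at 27°C and 46.9, 43.7, 29.1, and 31.2 at 20°C (log2 change −1.91 ± 0.32, SE, limma adjusted p = 3.56e-05). In each of them replicates 1 and 2 of cool Col-0 were the higher pair.

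EXT13 (TAIR10 chromosome 5, 13434151 to 13435424) had 2.29, 1.87, 3.11, and 3.27 in warm Col-0 and 18.9, 19.5, 14.3, and 11.6 in cool Col-0 (log2 change −2.5 ± 0.3, SE, limma adjusted p = 2.13e-07). AT5G06630 (TAIR10 chromosome 5, 2036312 to 2037855) had 1.27, 1.62, 2.38, and 1.65 at 27°C and 11.8, 12.8, 9.23, and 8.01 at 20°C (log2 change −2.44 ± 0.29, SE, limma adjusted p = 2.33e-07). AT4G08410 (TAIR10 chromosome 4, 5338819 to 5341209) had 0.837, 0.694, 0.778, and 1.0 at 27°C and 4.88, 6.02, 4.12, and 3.55 at 20°C (log2 change −2.17 ± 0.26, SE, limma adjusted p = 1.79e-07). AT4G08400 and AT4G08410 are uncertain, since 43.6% and 28.1% of their stretches of 100 bases also occur in the other gene and fragments could be split between them.

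In pif4-2, 9 of the 37 genes were lower at 27°C and none was higher, against 2.7% of all genes lower and 3.0% higher. All 9 were wall and RHS genes, and no extensin, tip growth regulator, or bHLH factor was called. None was higher at an unadjusted p under 0.05 or by voom, and voom called 13 lower. The median log2 change was −0.92. Leaving out replicate 2 of pif4-2 at 27°C, the lowest library for 29 of the 37 genes in its group, left 5 calls. RHS13 had 11.2, 5.29, 12, and 10.4 in pif4-2 at 27°C and 42.7, 25.5, 46.2, and 43 at 20°C (log2 change −2.02 ± 0.36, SE, limma adjusted p = 8.21e-05). RHS19 had 4.5, 2.34, 6.7, and 5.5 at 27°C and 19, 15.5, 24.5, and 20.5 at 20°C (log2 change −2.08 ± 0.29, SE, limma adjusted p = 1.98e-06). Both fell in pif4-2 as they did in Col-0, and no difference between the 2 genotypes passed the test for RHS13 (difference 0.51 ± 0.51, SE, limma adjusted p = 0.792) or RHS19 (difference 0.35 ± 0.41, SE, limma adjusted p = 0.834). The 13 tested root markers had a median log2 change of −0.30 in pif4-2, with CASP1, CASP2, and PIN2 called lower there too, and summed to 53.9 to 76.2 scaled FPKM over all 16 at 27°C and 84.9 to 110 at 20°C.

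Extensins of pif4-2 were already low at 20°C. There AT3G28550 had 11.9, 26.4, 24.7, and 7.88 in pif4-2, against 65.9, 64.9, 44.2, and 39 in Col-0. It was the 1 gene of the 37 called lower (log2 change −1.71 ± 0.32, SE, limma adjusted p = 0.000756), against 0.105% of all genes, and none was called higher, against 0.677%, with 2 higher at an unadjusted p under 0.05 and none by voom. For no extensin did the 4 cool pif4-2 libraries overlap with the 4 cool Col-0 libraries, while 11.2% of all genes lay lower in this way. Their log2 changes were −1.71 to −1.01, and 9 of the 10 had an adjusted p under 0.05, against 2.04% of all genes lower in this way, the exception being EXT12 (limma adjusted p = 0.063). The call of AT3G28550 was lost without any 1 of 15 libraries, among them replicates 1, 3, and 4 of pif4-2 and 1, 2, and 3 of Col-0 at 20°C, at adjusted p values up to 0.00692. It was also lost with only the groups compared (limma adjusted p = 0.0174), with 0.1 FPKM added (0.00135), and without a filter (0.00152). The median log2 change in pif4-2 at 20°C was −1.30 for the extensins, 0.02 for the wall and RHS genes, −0.211 for the bHLH factors, and −0.206 for the tip growth regulators. Of the other roles, 2 wall and RHS genes and 1 tip growth regulator had an adjusted p under 0.05 too, all 3 lower, and the roles were not tested against each other.

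Within cool pif4-2 the extensins varied together. Replicates 1 and 4 had 57.1 and 41.1 scaled FPKM summed over the 10, and replicates 2 and 3 had 104 and 117. The sum of the 10 extensins over the sum of the 14 wall and RHS genes ran from 0.291 to 0.918 in pif4-2 at 20°C and from 1.23 to 1.88 in Col-0, without overlap. At 27°C the same ratio was 0.925 to 1.20 in pif4-2 and 1.04 to 1.76 in Col-0, which overlap. In libraries labelled med14-2 it was 1.26 to 2.63 at 27°C and 1.22 to 1.65 at 20°C.

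**Figure D3:**
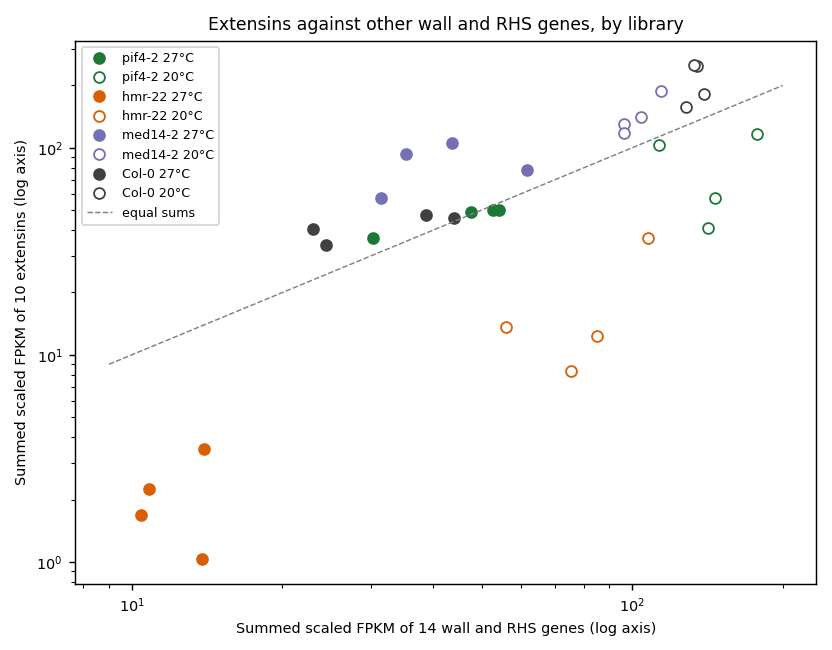
Summed scaled FPKM of the 10 extensins (vertical, log axis) against that of the 14 wall and RHS genes (horizontal, log axis), with 1 point per library, filled at 27°C and open at 20°C, and a dashed line where both sums are equal. The open pif4-2 points reach as far right as the open Col-0 points but lie lower, and all 8 hmr-22 points lie far below the line.

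The response to warmth of 3 extensins differed between pif4-2 and Col-0 (interaction, adjusted p under 0.05), and 0.943% of all genes had a lower and 1.54% a higher difference. These were AT3G28550 (difference 1.89 ± 0.45, SE, limma adjusted p = 0.0158), AT1G23720 (difference 1.7 ± 0.45, SE, limma adjusted p = 0.035), and EXT13 (difference 1.58 ± 0.42, SE, limma adjusted p = 0.0364). No gene had a lower difference, at an unadjusted p under 0.05 or by voom either. AT1G23720 had 9.2, 9.54, 11.2, and 11.6 in pif4-2 at 27°C and 7.98, 19.7, 20.4, and 6.28 at 20°C, with overlapping ranges. EXT13 had 4.65, 2.26, 3.75, and 3.2 in pif4-2 at 27°C and 6.34, 8.55, 10.4, and 3.27 at 20°C, which overlap as well. None of the 3 calls remained without replicate 4 of pif4-2 at 20°C, where the adjusted p values were 0.0505, 0.105, and 0.107. Only 1 of the 3 was called without replicate 1 of pif4-2 at 20°C, replicate 3 of pif4-2 at 27°C, replicate 1 or 2 of Col-0 at 20°C, or replicate 1 of Col-0 at 27°C. A fit without the hmr-22 libraries called 11 genes.

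At 27°C none of the 37 genes was called between pif4-2 and Col-0 (limma), against 1.1% of all genes lower and 3.38% higher. At an unadjusted p under 0.05, 2 were lower and 10 higher, and voom called none. RHS13 had 11.2, 5.29, 12, and 10.4 in pif4-2 against 3.17, 2.3, 6.5, and 5.44 in Col-0, with overlapping ranges (log2 change 1.15 ± 0.36, SE, limma adjusted p = 0.0155). ADF8 had 1.99, 1.05, 1.71, and 1.9 in pif4-2 against 0.577, 0.456, 1.12, and 0.948 in Col-0 (log2 change 0.92 ± 0.27, SE, limma adjusted p = 0.0113). The extensins of the 2 genotypes lay close at 27°C, with log2 changes of −0.05 to 0.35.

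In the libraries labelled med14-2, 8 of the 37 genes were lower at 27°C and none was higher, against 2.83% of all genes lower and 1.62% higher. None was higher at an unadjusted p under 0.05 or by voom, which called 13 lower. The 8 were 6 wall and RHS genes and the extensins EXT13 and AT4G08410, and the median log2 change of the 37 was −0.92. This count moved with single libraries: it was 2 without replicate 4 of the warm group, 3 without replicate 2 and 5 without replicate 1 of that group. It was 4, 3, 5, and 4 without replicates 1, 2, 3, and 4 of the cool group, and a fit without the hmr-22 libraries called 15. RHS13 had 5.72, 3.28, 12.7, and 4.54 in warm med14-2 and 25.1, 21.6, 22, and 22.4 in cool med14-2 (log2 change −1.93 ± 0.36, SE, limma adjusted p = 0.000169). EXT13 had 3.65, 2.68, 1.74, and 1.08 at 27°C and 10.1, 13.2, 7.16, and 7.24 at 20°C (log2 change −2.0 ± 0.3, SE, limma adjusted p = 7.16e-06). Both fell without overlap, and the largest log2 change of the group was that of PRP1, −3.28, whose level was 0.152 ± 0.111 in warm and 3.64 ± 1.1 in cool med14-2 (scaled FPKM, SD, n = 4).

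Of the 10 extensins, 3 lay higher in warm med14-2 than in warm Col-0 without overlap, against 14.6% of all genes, and 7 overlapped. Their log2 changes were above 0 for 6 and below 0 for 4, the lowest −0.599. AT1G23720 had 29.6, 28.6, 22.8, and 20.9 in med14-2 at 27°C, against 7.11, 10.4, 10.1, and 11.6 in Col-0 (log2 change 1.36 ± 0.32, SE, limma adjusted p = 0.00314). At 20°C it had 31.4, 38.4, 32.4, and 28 in med14-2, against 46.9, 43.7, 29.1, and 31.2 in Col-0, with overlapping ranges (log2 change −0.19 ± 0.32, SE, limma adjusted p = 0.775). AT3G28550 had 30.8, 26.6, 20.9, and 17.4 in med14-2 at 27°C, against 9.95, 12.6, 11.3, and 13.3 in Col-0 (log2 change 0.98 ± 0.32, SE, limma adjusted p = 0.0368). Neither passed the threshold for a call. The third was AT3G54580, which had 24, 18.9, 17.1, and 9.72 against 7.08, 7.13, 9.02, and 8.99 in the same comparison (log2 change 1.03 ± 0.35, SE, limma adjusted p = 0.0447).

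The response to warmth differed between the med14-2 label and Col-0 for 5 genes, each less negative in med14-2, against 2.03% of all genes with a higher and 4.37% with a lower difference. No gene had a lower difference, at an unadjusted p under 0.05 or by voom either. The count was 15 without the hmr-22 libraries or with only the groups compared, 13 by voom, 2 with 0.1 FPKM added, and 25 with library weights, 1 of them lower. Beside RHD2 they were LRX1 (1.24), AT5G06630 (1.48), AT3G28550 (1.48), and AT1G23720 (1.55), at limma adjusted p values of 0.036, 0.024, 0.044, and 0.032. LRX1 (TAIR10 chromosome 1, 4069992 to 4072681), a leucine-rich repeat extensin that sits in the hair wall, had 2.48, 1.5, 2.13, and 0.935 in warm and 3.01, 3.62, 2.27, and 2.11 in cool med14-2. In Col-0 it had 0.772, 0.617, 1.34, and 1.37 at 27°C and 4.98, 4.88, 4.38, and 2.87 at 20°C. The Col-0 ranges were apart and the med14-2 ranges overlapped. RHD2 kept its call without each library in turn, and the other 4 did not: the count was 1 without replicate 3 or 4 of cool med14-2, replicate 1 or 2 of cool Col-0, or replicate 1 of warm Col-0. It was 2 without replicate 1 or 3 of warm med14-2, 3 without replicate 1 of cool or 2 of warm med14-2 or replicate 2 of warm Col-0, and 9 without replicate 4 of warm med14-2 or replicate 3 of cool hmr-22. Of the 13 root markers tested, CASP1 and PIN2 were called higher in warm med14-2 than in warm Col-0 (1.12 and 1.01) and 1 was called lower. Of all genes, 1.38% were higher and 1.85% lower. The median log2 change of the 13 was 0.14. TIP2;3 had a mean of 0.89 scaled FPKM in warm med14-2 and 5.75 in warm Col-0. The 16 root markers summed to 57.9 to 75.4 scaled FPKM in warm med14-2 and to 39.7 to 61.1 in warm Col-0, which overlap. Their part in these differences was not tested.

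At 20°C, AT4G08410 was the 1 gene called lower in med14-2 (log2 change −1.36 ± 0.26, SE, limma adjusted p = 0.000368), against 0.717% of all genes, and none was called higher, against 1.24%. None was higher by voom, and 1 was at an unadjusted p under 0.05. AT4G08410 had 1.73, 2.26, 1.56, and 1.12 in med14-2 against 4.88, 6.02, 4.12, and 3.55 in Col-0, without overlap. It shares sequence with AT4G08400, and its call was lost without replicate 1, 3, or 4 of med14-2 or replicate 1 or 2 of Col-0 at 20°C, at adjusted p values of 0.00113 to 0.00362. AT5G06630 had 5.33, 8.27, 5.13, and 5.19 in cool med14-2 against 11.8, 12.8, 9.23, and 8.01 in cool Col-0 (log2 change −0.79 ± 0.29, SE, limma adjusted p = 0.0751).

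hmr-22 had the lowest levels of most of these genes. At 20°C, 23 of the 37 genes were lower in hmr-22 than in Col-0 and 1 was higher, where 28.0% of all genes were lower and 21.5% higher. At 27°C, 27 were lower and 1 higher, against 24.0 and 23.6% of all genes. The higher gene was SCN1 at both temperatures, and its direction at 20°C turned without the scaling factors, to −0.40. All 10 extensins were lower at both temperatures. At 20°C 7 of the 14 wall and RHS genes, 5 of the 9 tip growth regulators, and 1 bHLH factor (RSL2) were lower with them. At 27°C these counts were 11, 5, and 1 (LRL3). Without scaling, 33 of the 37 genes were lower at 20°C and 29 at 27°C, and none was higher. At 27°C the count of lower genes was 16 under quantile normalization and 14 with 1 FPKM added. As deposited, AT3G28550 had 0.808 ± 0.354 FPKM in hmr-22 at 20°C, against 63.6 ± 16.8 in Col-0 (SD, n = 4).

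The extensins of cool hmr-22 were far down while some wall genes were not. AT3G28550 had 1.83, 2.89, 5.07, and 1.38 scaled FPKM in hmr-22 at 20°C (log2 change −4.25 ± 0.32, SE, limma adjusted p = 2.39e-13). EXT13 had 1.37, 1.1, 1.46, and 1.07 (log2 change −3.42 ± 0.3, SE, limma adjusted p = 7.63e-12). RHD2 had 0.133, 0.267, 0, and 0.551 (log2 change −3.34 ± 0.24, SE, limma adjusted p = 1.1e-13). All of these lay below each cool Col-0 library. EXPA7 had 8.21, 5.03, 10.7, and 9.53 in the same libraries, against 5.95, 6.23, 8.14, and 7.83 in Col-0, with overlapping ranges (log2 change 0.2 ± 0.31, SE, limma adjusted p = 0.557). RHS13 had 29.8, 11.2, 34.9, and 32.9, which also overlapped with Col-0 (log2 change 0.03 ± 0.36, SE, limma adjusted p = 0.947). On the deposited scale both were lower in cool hmr-22, at 2.49 ± 0.595 against 8.37 ± 1.36 FPKM in Col-0 for EXPA7 and 7.97 ± 2.92 against 29.4 ± 5.44 for RHS13. The ratio of summed extensins to summed wall and RHS genes, which no library factor alters, was 0.11 to 0.34 in hmr-22 at 20°C and 0.0748 to 0.252 at 27°C, and the cool range reached above the lowest pif4-2 value, 0.291.

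At 27°C many of these genes were not detected in hmr-22. Of the 38 genes, 11 had no fragment in any of the 4 libraries. Set against a floor of 3 fragments over the group, EXT6 was at least 45.9-fold lower in warm hmr-22 than in warm Col-0. EXT10 was at least 44.1-fold lower, LRX1 at least 29.0-fold lower, and COW1, a phosphatidylinositol transfer protein of hair tips, at least 26.7-fold lower. PRP3 had 0.0917, 0, 0, and 0.323 (log2 change −3.46 ± 0.34, SE, limma adjusted p = 1.12e-10). RHS19 had 0, 0, 0.18, and 0.102 (log2 change −3.55 ± 0.29, SE, limma adjusted p = 1.5e-12). AGP3 had 0.644, 1.07, 0.537, and 0.302 (log2 change −2.52 ± 0.27, SE, limma adjusted p = 6.32e-10). Each of these lay below every warm Col-0 library. CSLD3 did not follow, with 12.3, 12.7, 9.07, and 7.57 in warm hmr-22 against 7.48, 7.56, 8.27, and 8.71 in warm Col-0 (log2 change 0.34 ± 0.13, SE, limma adjusted p = 0.0206), and on the deposited scale it was lower in hmr-22, at 5.84 ± 1.38 against 13.6 ± 0.946 FPKM. SCN1 had 81, 63.4, 81, and 107 in warm hmr-22 against 17.5, 18, 18.4, and 17.1 in warm Col-0 (log2 change 2.19 ± 0.13, SE, limma adjusted p = 1.55e-15), and without scaling it was 0.60 higher on the log2 scale and not called.

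The bHLH factors of hmr-22 rested on few fragments. RSL2 had 6 fragments over the 4 cool libraries of hmr-22 and none over the 4 warm ones, and the call at 20°C (log2 change −1.7 ± 0.38, SE, limma adjusted p = 0.00016) was lost without replicate 1 or 4 of hmr-22 or replicate 2 of Col-0 at 20°C. LRL3 had 3.96, 1.46, 3.95, and 2.91 in cool hmr-22, the highest scaled mean of the 8 groups, and 0.169, 0, 0, and 0.298 in warm hmr-22. On the deposited scale its cool mean was lower in hmr-22, at 0.893 ± 0.247 FPKM against 2.55 ± 0.456 in Col-0. Its call at 27°C (log2 change −1.35 ± 0.32, SE, limma adjusted p = 0.000362) was lost without replicate 2 or 3 of warm hmr-22 or replicate 3 or 4 of warm Col-0. RSL4 had 2.45, 0.393, 0, and 2.03 in cool hmr-22, a spread that spans all other groups.

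With warmth, 8 of the 37 genes were lower in hmr-22 and none higher, against 8.3% of all genes lower and 13.8% higher. Fitted on the hmr-22 groups alone, 13 genes passed the filter on low values and 7 were called lower. The median log2 change of the 37 was −1.49, against −1.91 in Col-0. It was −0.61 with 1 FPKM added and −3.13 by voom, against −1.38 and −2.27 in Col-0. The count of calls thus does not measure the size of the response. At an unadjusted p under 0.05, 26 were lower and 2 higher, and voom called 7 lower and none higher. The 8 were PRP3, EXPA7, EXPA18, RHS13, RHS19, AGP3, AT3G54580, and AT1G23720. RHS13 had 0.258 ± 0.184 at 27°C and 27.2 ± 10.8 at 20°C (scaled FPKM, SD, n = 4), with log2 change −5.72 ± 0.36 (SE), limma adjusted p = 5.35e-14. It fell further than in Col-0 (difference −3.2 ± 0.51, SE, limma adjusted p = 8.33e-06). Of the 37 genes, 8 had a lower and 9 a higher difference, against 16.5% and 29.0% of all genes. The split depended on the scaling and the added value: it was 3 lower and 14 higher without scaling, 3 and 8 under quantile normalization, 4 and 16 with 1 FPKM added, and 12 and 4 by voom. The lower ones were LRL3, ADF8, and 6 wall and RHS genes, among them EXPA7 (−1.95) and AGP3 (−1.92). The higher ones were 6 tip growth regulators, PRP1, and the extensins AT5G06630 and AT4G08410. MRH6 and IRE had no fragment in any of the 8 hmr-22 libraries, so no response was measured in hmr-22 and their differences are those of Col-0 with the sign turned. PRP1 and AT4G08410 had no fragment in the 4 warm libraries, AT5G06630 had 1 fragment over the 4 warm and 3 over the 4 cool ones, and PIP5K3 had 11 and 2. RHD2 (2.16) was already near the 0.25 FPKM added in cool hmr-22 and had little room to fall. Its difference is in large part the fall in Col-0 with the sign turned. The lower difference of RHS12, −0.96, was 0.03 without scaling, and the higher one of AT4G08410, 1.01, was −1.21 with voom.

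Root markers of hmr-22 at 20°C summed to 233 to 357 scaled FPKM, against 82.6 to 97.0 in Col-0. CASP1, CASP2, SHR, and TIP2;3 were called higher and PHO1 lower (CASP1 2.01, CASP2 2.25), against 21.5% of all genes higher and 28.0% lower. The median log2 change of the 13 tested was −0.55. CASP1, TIP2;3, and CASP2 had the highest means in cool hmr-22, 112, 69.3, and 46.1. At 27°C the root markers summed to 100 to 118 in hmr-22, against 39.7 to 61.1 in Col-0, with a median log2 change of 0.22. WER and BRN1 were at 0 throughout warm hmr-22 and WOX5 was at 0 throughout cool hmr-22. The 8 seed markers summed to 37.8 to 77.4 scaled FPKM in warm hmr-22 against 1.18 to 2.04 in warm Col-0. OLEO2 alone had a mean of 38.8 in warm hmr-22. As deposited, the seed markers summed to 21.7 to 40.8 FPKM against 1.93 to 3.43, in the same order. Green tissue markers summed to 16640 to 27880 in warm hmr-22 against 10880 to 12800 in warm Col-0. The orders of the green tissue and root markers depend on the scaling. On the deposited scale the green tissue markers summed to 10600 to 12410 in warm hmr-22 against 18530 to 21470 in warm Col-0. The root markers summed there to 52.4 to 66.9 in warm hmr-22 against 66.6 to 104 in warm Col-0, and to 70.5 to 104 in cool hmr-22 against 96.7 to 113 in cool Col-0. The part of tissue shares in the lower root hair genes of hmr-22 was not tested.

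**Figure D4:**
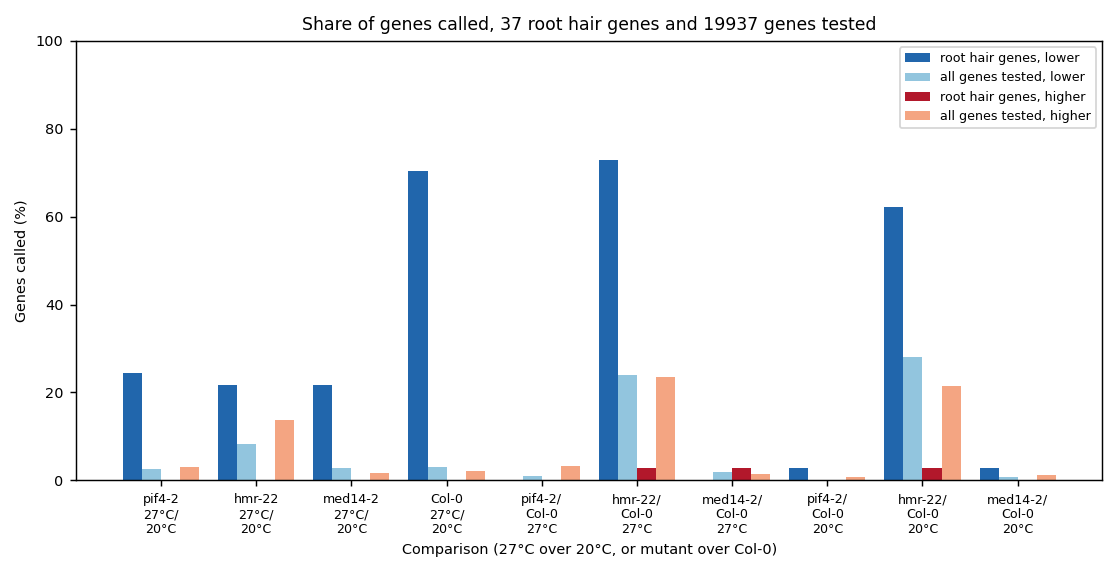
Percent of genes called lower (blue) or higher (red) in each comparison, for the 37 root hair genes tested (dark bars) and for all 19937 genes tested (light bars). The dark blue bar of warm Col-0 stands for 26 of 37 genes against 2.99% of all genes, and in hmr-22 the background bars reach 28.0% lower and 23.6% higher.

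Other genes of the root hair pathway were counted by the same rule for a call. Of 33 further genes listed from general knowledge, 30 matched their names in the reference and all were tested. In Col-0, 1 of the 30 was lower at 27°C and none was higher, near the shares of all genes, 2.99% lower and 2.24% higher. The median log2 change of the 30 was −0.10. The lower gene was ERU, a receptor-like kinase of the hair tip (log2 change −1.09 ± 0.24, SE, limma adjusted p = 0.00093). It was 0.471 ± 0.0354 in warm Col-0 and 1.3 ± 0.271 in cool Col-0 (scaled FPKM, SD, n = 4), against 1.22 ± 0.103 in warm and 0.88 ± 0.227 in cool med14-2. Of the patterning genes, which decide between hair and non-hair cells, none was called in warm Col-0: GL2, which represses hair fate, had a log2 change of 0.45 and WER, which acts upstream of it, of −0.905. LRL1, a relative of LRL3, had a change of −0.96 and missed the 2-fold threshold. In pif4-2 none of the 30 was called with warmth, against 2.7% of all genes lower and 3.0% higher. In med14-2 the actin gene ACT2 was the 1 gene called, lower with warmth (−1.03), against 2.83% of all genes lower and 1.62% higher. In hmr-22 against Col-0, 6 were lower and 8 higher at 20°C, and 8 lower and 9 higher at 27°C, next to 28.0% lower and 21.5% higher of all genes at 20°C and 24.0% and 23.6% at 27°C, with GL2 lower (−2.67) and ACT2 higher (3.83) at 27°C.

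Across the 4 genotypes, the order of levels differed with temperature. At 20°C Col-0 had the highest mean of pif4-2, med14-2, and Col-0 for 24 of the 37 genes and for all 10 extensins. At 27°C Col-0 had the lowest mean of these 3 for 24 of the 37 genes, for all 4 bHLH factors tested and for 6 of the 10 extensins. Few of these orders at 27°C passed the rule for a call, with 0 genes called between pif4-2 and Col-0 and 1 between med14-2 and Col-0. Missing that rule does not show equal levels. hmr-22 had the lowest mean of all 4 genotypes for 30 of the 37 genes at 20°C and for 34 at 27°C.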

How the data were processed

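RNA of whole seedlings was sequenced in 32 libraries, 4 in each of 8 groups taken from the labels. The authors mapped reads in CLC Genomics Workbench 21 and deposited FPKM per gene and library. A gene's lowest FPKM steps gave back whole fragments for 99.242 to 99.305% of values up to 1000 fragments (within 0.05 of a whole number), hence the depth of 11911240 to 16883321 fragments per library, with a median of 13978348. Intervals and floors cover counting error only.

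From the deposited FPKM, genes with at least 0.5 FPKM in at least 4 libraries were kept (19937). Values were divided by an unweighted TMM factor per library (trimming 30% of ratios and 5% of levels), 0.25 was added, and log2 values were fitted with 8 group means in limma 3.58.1 (R 4.3.3, statmod 1.5.0; empirical Bayes with trend and robust). All 8 groups shared 1 spread per gene, although the median SD over all genes (log2) ran from 0.146 in Col-0 at 27°C to 0.461 in hmr-22 at 20°C. The p values can thus be too small for cool hmr-22 and too large between groups of small spread. Adjusted p values are Benjamini-Hochberg over all genes tested within a comparison. A call needed an adjusted p under 0.001, at least 2-fold, and a larger group mean over 1 deposited FPKM, and a difference between responses an adjusted p under 0.05. The same fit was run on simulated data with the same dispersion for every gene and library. That run cannot show how the fit behaves when groups differ in spread. Python 3.11.15, pandas 2.3.3, numpy 2.4.6, and matplotlib 3.10.9 were used for the rest.

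Values per library are given for the 5 bHLH factors, the 4 genes of each other role with the highest mean FPKM, any gene called against the direction of the rest, and any gene in a count of at most 5. A few others were named after their values were seen. The genes and lists were chosen with earlier results of these data known. Of 33 listed pathway genes, 3 whose name differed in the RefSeq table were left out. Alternatives were other scalings, added values, no filter, a replicate block, library weights, voom on recovered fragments, fits of fewer groups, a looser threshold, and leaving out each library. Same-numbered libraries deviated together (all 4 correlations over 0.1) in 3 of 28 pairs of groups, which include med14-2 at 27 and 20°C (from 0.191) and med14-2 and Col-0 at 20°C (from 0.124). In those 2 comparisons the replicate block left the count of calls within 1.5 times. Promoter windows came from RefSeq (TAIR10.1), and 27438 of 27445 nuclear genes had the same span there. Wild-type seedlings are labelled WT and are called Col-0 here. That replicates came from separate pools of seedlings rests on the study's methods.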

Additional observations from a re-analysis of the deposited data

Results flagged for a closer look

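Single libraries stood apart from the other 3 of their group in 18 of 208 groups of values checked, where chance gives about 1 in 20. In hmr-22 at 20°C, replicate 3 was the high one for RSL2 (1.353 scaled FPKM), PRP3 (9.776), AGP3 (20.58), AT3G54580 (14.04), and AT1G23720 (7.064), and replicate 4 for RSL1 (0.3319). In hmr-22 at 27°C, replicate 4 was high for RHS12 (0.1292) and AT5G06630 (0.08519), with the other 3 libraries at 0. ADF8 was listed at 0.0 in replicate 2 of that group, and MRH1 was low in replicate 1 (0.6727). In med14-2 at 20°C, replicate 2 was high for AGP3 (17.14) and AT5G06630 (8.271). In med14-2 at 27°C, replicate 3 was high for RSL2 (0.819) and EXPA7 (5.328), and replicate 4 was low for PRP3 (2.458). Replicate 1 of the same group had 55.94% of its fragments in nuclear genes, against 91.5 to 95.8% in the other 3. In pif4-2, replicate 3 at 20°C was high for PRP3 (18.68), and replicate 2 at 27°C had a median log2 level of 0.483 over the root hair genes, against 1.105 to 1.106 in the other 3.

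The response to warmth differed from that of Col-0 for 25 pairs of gene and mutant in the interaction test of limma. In pif4-2 the differences in log2 change were 1.58 for EXT13, 1.89 for AT3G28550, and 1.70 for AT1G23720. In med14-2 they were 1.24 for LRX1, 1.45 for RHD2, 1.48 for AT5G06630, 1.48 for AT3G28550, and 1.55 for AT1G23720. In hmr-22 the lower differences were −1.75 for LRL3, −1.32 for PRP3, −1.95 for EXPA7, −1.42 for ADF8, −0.96 for RHS12, −3.20 for RHS13, −1.70 for RHS19, and −1.92 for AGP3. The higher differences there were 1.70 for PRP1, 1.35 for MRH6, 2.16 for RHD2, 0.87 for IRE, 1.44 for PIP5K3, 1.57 for PERK13, 0.63 for SCN1, 2.13 for AT5G06630, and 1.01 for AT4G08410. MRH6 and IRE were at 0 in all 8 hmr-22 libraries, so their values hold no measured response of hmr-22, and PRP1 and AT4G08410 were at 0 in the 4 warm ones. RHD2 was near the 0.25 FPKM added in cool hmr-22 and had little room to fall.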

How the results depend on the processing

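The count of 26 lower genes in warm Col-0 was 23 to 35 under the other settings, and no gene was called higher there under any of them. The counts that moved by over 1.5 times were these, with the cause not tested. With library weights, 16 genes were called in warm pif4-2, 15 in warm med14-2, 11 between pif4-2 and Col-0 at 20°C and 5 at 27°C, 2 between med14-2 and Col-0 at 20°C and 8 at 27°C, and 23 and 25 differences of response in pif4-2 and med14-2. Without the hmr-22 libraries these counts were 15, 15, 4, 2, 2, 3, 11, and 15. With voom on recovered fragments, 13 were called in warm med14-2, 5 between pif4-2 and Col-0 at 20°C, 2 and 3 between med14-2 and Col-0 at 20 and 27°C, and 9 and 13 differences in pif4-2 and med14-2. In fits of only the groups compared, 1 was called between pif4-2 and Col-0 at 27°C, 2 and 3 between med14-2 and Col-0 at 20 and 27°C, and 12 and 15 differences in pif4-2 and med14-2.

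Without scaling, 3 genes were called between pif4-2 and Col-0 at 20°C, 2 and 3 between med14-2 and Col-0 at 20 and 27°C, and 5 and 9 differences in pif4-2 and med14-2. Under quantile normalization, 2 were called between pif4-2 and Col-0 at 20°C and 1 at 27°C, 17 between hmr-22 and Col-0 and 2 between med14-2 and Col-0 at 27°C, and 6, 11, and 12 differences in pif4-2, hmr-22, and med14-2. With 0.1 FPKM added, 4 were called in warm med14-2, 0 between pif4-2 and Col-0 at 20°C, 0 between med14-2 and Col-0 at either temperature, and 1 and 2 differences in pif4-2 and med14-2. With 1 FPKM added, 3 were called between pif4-2 and Col-0 at 20°C, 2 and 0 between med14-2 and Col-0 at 20 and 27°C, 15 between hmr-22 and Col-0 at 27°C, and 8 and 11 differences in pif4-2 and med14-2. Without a filter, 0 were called between pif4-2 and Col-0 at 20°C and 0 between med14-2 and Col-0 at 27°C. At an adjusted p under 0.05 with no fold threshold, 25, 27, and 19 were called in warm pif4-2, hmr-22, and med14-2, 12 and 9 between pif4-2 and Col-0 at 20 and 27°C, and 5 and 6 between med14-2 and Col-0.

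The sign turned for 3 values. SCN1 in hmr-22 at 20°C was −0.398 and the difference of RHS12 in hmr-22 was 0.032 without scaling, and the difference of AT4G08410 in hmr-22 was −1.213 with voom.

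Leaving out 1 library gave 25 to 29 calls in warm Col-0, 5 to 12 in warm pif4-2, 7 to 8 in warm hmr-22, and 2 to 10 in warm med14-2. At 20°C it gave 0 to 3 for pif4-2, 23 to 26 for hmr-22, and 0 to 2 for med14-2 against Col-0, and at 27°C 0 to 0, 25 to 29, and 0 to 2. Differences of response ranged from 0 to 4, 15 to 19, and 1 to 9.

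Except between med14-2 at 27 and 20°C, med14-2 and Col-0 at 20°C, and pif4-2 and med14-2 at 27°C, replicate numbers did not pair the samples: correlations averaged 0.0812 between libraries of 1 number and −0.027 across numbers, over 28 pairs of groups. With the replicate block, 10 genes were called in warm med14-2, 2 between pif4-2 and Col-0 at 20°C and 1 at 27°C, 0 between med14-2 and Col-0 at 27°C (RHD2, limma adjusted p = 0.00102), and 9 differences in med14-2. Other counts stayed within 1.5 times.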
